A study of Mus musculus with 8 samples.

Results

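The 45 genes described here encode the ligands, receptors, Smad proteins and extracellular antagonists of bone morphogenetic protein (BMP) and transforming growth factor beta (TGF-beta) signalling, the decoy receptor Bambi, and target genes of the Id and Msx families with Gata2. They were taken by name from 19356 genes measured on each array, and each was read from 1 probe set that carries a single gene symbol. Gene expression was compared in the caudal part of the urogenital ridge, the paired strip of intermediate mesoderm that gives rise to the kidney, of mouse embryos of stage E10.75. There were 4 wild type replicates and 4 replicates carrying the Sox11-/- genotype, in which the gene for the transcription factor Sox11 is inactivated, all untreated and on a mixed genetic background. The sources used here do not say how the allele was made, or whether RNA of several embryos was joined for an array. The labels call the replicates independent, and p-values measure the spread between them.

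BMP and TGF-beta ligands are secreted dimers that bring together type I and type II receptors. Type I receptors phosphorylate receptor Smads, of which Smad1, Smad5 and Smad9 serve the BMP branch and Smad2 and Smad3 the TGF-beta and activin branch. These enter the nucleus with Smad4, while Smad6 and Smad7 inhibit the pathway, and the Id genes are direct targets of the BMP branch. In the early kidney, Bmp4 restrains outgrowth of the ureteric bud from the nephric duct, the secreted antagonist Grem1 lifts that restraint, and Bmp7 maintains nephron progenitors.

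The values are log2 signals, so a difference of 1 is a doubling, and they were not compared between genes. The signal of Sox11 itself was 11.79 ± 0.06 in wild type against 9.10 ± 0.13 in the knockouts (SD, n = 4 each). The sources used here do not place its probes inside or outside the deleted part. Among the 10 genes taken as markers of the caudal ridge, mean log2 signals over the arrays ran from 7.21 for Lhx1 to 11.76 for Osr1. At a limma adjusted p under 0.05, 1 of them, the receptor gene Ret, was higher in knockout (by 0.41, adjusted p = 0.022). Of all genes 1.44% passed that threshold, 1.08% lower and 0.362% higher. Before adjustment 5 of the 10 had a limma p under 0.05, against 16.7% of all genes. Ret, Lhx1 (0.42) and Gata3 (0.25) lay higher, and Eya1 (-0.28) and Hoxd11 (-0.23) lay lower. Groups did not overlap in 4 of the 10 (40.0%), against 10.5% of all genes. In bulk RNA of a dissected piece, fewer cells of a type and less RNA per cell cannot be told apart. Of markers of other cells, neuronal markers lay lower in knockout for 8 of 9 genes, 1 of which passed the adjusted test (array means of the list 7.81 to 8.21 in wild type, 7.56 to 7.94 in knockout) and erythroid markers for 8 of 9 (8.81 to 9.44 against 8.79 to 9.11). Striated muscle markers lay higher for 8 of 10 (6.89 to 7.0 against 6.99 to 7.21), and so did endothelial markers for 8 of 10 (9.52 to 9.82 against 9.65 to 9.90). Signals of the muscle markers were low, with 6 of 10 not above the 25th percentile of all genes (6.22). A limma p under 0.05 before adjustment was found for 3 of 9 neuronal, 4 of 9 erythroid, 5 of 10 striated muscle and 0 of 10 endothelial markers. The share of all genes was 16.7%. Array signals have no true zero, so no marker can be called absent, and the part that these cells have in the values below was not tested.

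No BMP or TGF-beta gene passed the test between genotypes: 0 of 45 were lower and 0 were higher at a limma adjusted p under 0.05, where 1.44% of all 19356 genes passed (1.08% lower and 0.362% higher). The lowest adjusted p was 0.105, for Chrdl1. Before adjustment, 6 of 45 had a limma p under 0.05 and lay lower and 3 lay higher (20.0%), against 9.38% lower and 7.29% higher among all genes, or 16.7% in either direction. The 4 knockout arrays lay wholly to 1 side of the 4 wild type arrays in 5 members (11.1%), which were 4 lower and 1 higher, against 10.5% of all genes (6.47% lower and 4.04% higher). Both shares were thus near those of all genes. A linear model without moderation called 0 of the 45, but only 55 of all 19356 genes, so this 0 adds little. In that fit 8 members had an unadjusted p under 0.05. The share of all genes at such a p there is not given here, so that count describes the members alone.

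The differences were small, with a median of 0.01 over the 45 members and of 0.00 over all genes. They ran from -0.31 for Id1, an inhibitor of helix-loop-helix factors, to 0.37 for Chrdl1, a secreted BMP antagonist. The limma 95% interval of the difference, which is not adjusted for the number of genes, stayed within a 1.5-fold change in either direction for 42 of 45 members (93.3%), as it did for 93.9% of all genes. The exceptions were Inhba, Grem1 and Chrdl1. Within a 1.3-fold change it stayed for 33 members (73.3%, against 73.7% of all genes).

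**Figure D1:**
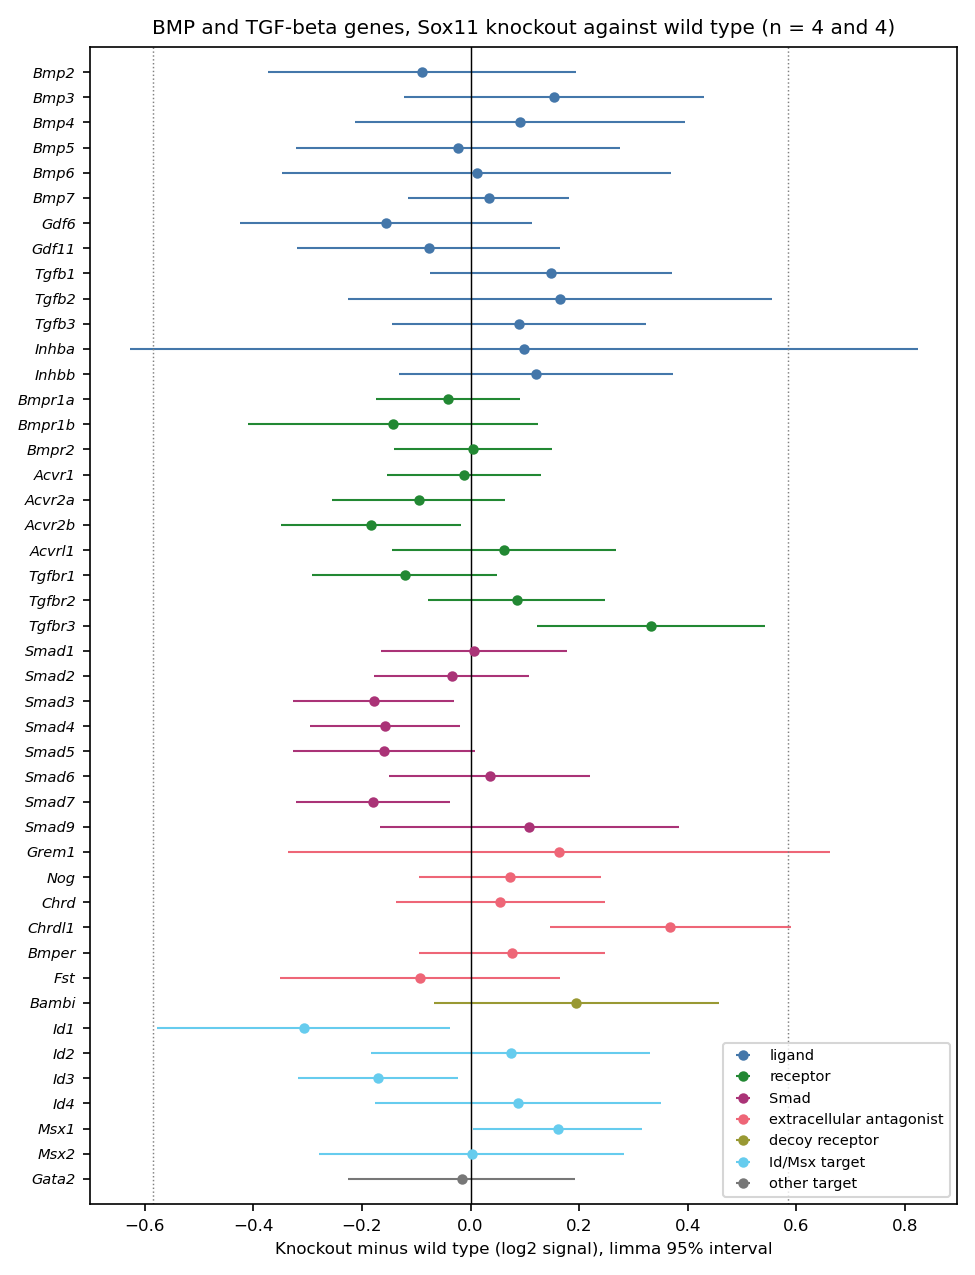
Knockout minus wild type difference in log2 signal (x axis) of each of the 45 genes (y axis), coloured by role; points are differences of means (n = 4 and 4), bars are limma 95% intervals, and dotted lines mark a 1.5-fold change. The intervals of 9 genes do not reach 0, 6 of them on the lower side, and the bars of Inhba, Grem1 and Chrdl1 cross a dotted line.

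Of the 13 ligand genes, 0 had an unadjusted p under 0.05, against 16.7% of all genes. Their differences ran from -0.16 for Gdf6 to 0.17 for Tgfb2, with a median of 0.09. Bmp4 had log2 signals of 11.38, 11.22, 11.22 and 10.78 in the wild type and 11.29, 11.51, 11.03 and 11.13 in the knockout arrays. Its groups overlapped, with wild type replicate 4 lowest of all. The difference was 0.09 (95% interval -0.21 to 0.39, limma adjusted p = 0.770), so the interval stayed within a 1.5-fold change, and without wild type replicate 4 it was -0.03.

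Bmp7 had signals of 10.54, 10.61, 10.76 and 10.65 in wild type and 10.72, 10.67, 10.67 and 10.62 in knockout. The knockout arrays lay inside the wild type range, and the difference was 0.03 (95% interval -0.11 to 0.18, limma adjusted p = 0.830). Bmp7 thus had the narrowest interval of the ligands.

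Inhba, which encodes the activin A subunit, varied most. Its signal was 7.71 in wild type replicate 1 and 6.39, 6.03 and 5.89 in the other wild type arrays, against 6.77, 6.65, 6.32 and 6.68 in knockout. The difference over all arrays was 0.10 (95% interval -0.63 to 0.82). Without wild type replicate 1 it was 0.50 (limma adjusted p = 0.125), so this array decides its size.

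The TGF-beta ligands Tgfb1, Tgfb2 and Tgfb3 differed by 0.15, 0.17 and 0.09 (limma adjusted p = 0.485, 0.668 and 0.704), each overlapping between genotypes. Tgfb2 ran from 0.01 without wild type replicate 3 to 0.33 without wild type replicate 2, which had its highest signal at 10.78. Gdf11, a ligand that patterns the caudal trunk and acts upstream of budding, was at -0.08 (95% interval -0.32 to 0.16). The BMP ligands Bmp2, Bmp3, Bmp5 and Bmp6 lay between -0.09 and 0.15, and Inhbb, the activin B subunit, was at 0.12. Bmp5, at -0.02, was at 0.01 and 0.02 after the 2 further normalizations.

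**Figure D2:**
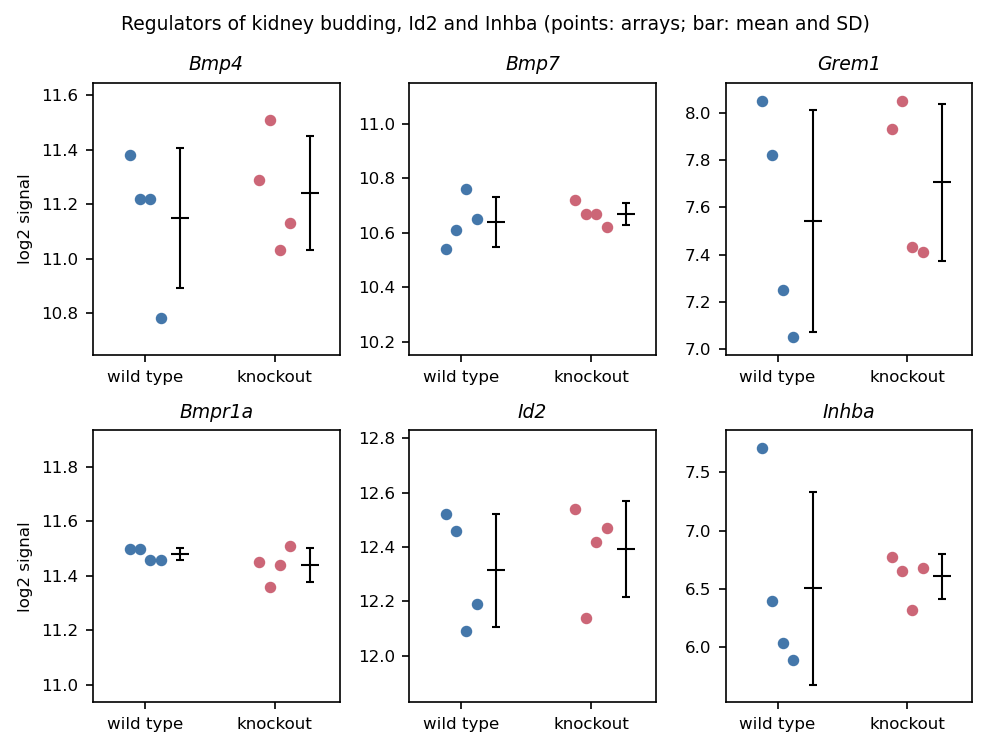
Log2 signal (y axis) of Bmp4, Bmp7, Grem1, Bmpr1a, Id2 and Inhba in the 4 wild type and 4 knockout arrays (x axis); each point is 1 array, and the bar gives mean and SD. Each of the 6 genes overlaps between genotypes, and wild type replicate 1 stands apart for Inhba at 7.71.

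Among the 10 receptor genes 1 lay lower and 1 higher with a p under 0.05 before adjustment, against 9.38% lower and 7.29% higher among all genes. Tgfbr3, or betaglycan, a co-receptor that binds TGF-beta2 and inhibin, had signals of 8.47, 8.58, 8.70 and 8.32 in wild type and 8.83, 8.68, 8.96 and 8.92 in knockout. Knockout replicate 2 lay just under wild type replicate 3, and the other knockout arrays lay above every wild type array. The means were 8.52 ± 0.16 and 8.85 ± 0.13 (SD, n = 4 each), a difference of 0.33 (SE 0.10) or 1.26-fold, with a limma p of 0.00538 before adjustment and 0.120 after. Its unadjusted p stayed under 0.05 in each of the 19 alternative analyses, where the adjusted p ran from 0.0671 to 0.275.

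Acvr2b, a type II receptor for activins and Gdf11, had signals of 8.58, 8.70, 8.74 and 8.58 in wild type and 8.44, 8.61, 8.46 and 8.36 in knockout. Only knockout replicate 2 reached into the wild type range. It lay lower by 0.18 (95% interval -0.35 to -0.02, limma adjusted p = 0.252, unadjusted 0.0327), and its unadjusted p was under 0.05 in 11 of 19 alternatives.

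Bmpr1a, the main type I BMP receptor, had signals of 11.50, 11.50, 11.46 and 11.46 in wild type and 11.45, 11.36, 11.44 and 11.51 in knockout. These arrays differed by -0.04 (95% interval -0.17 to 0.09), the narrowest interval of any member. The type II receptor Bmpr2 was at 0.01 (95% interval -0.14 to 0.15) and the type I receptor Acvr1 at -0.01 (95% interval -0.15 to 0.13). Acvr1 turned to 0.02 and 0.04 under the 2 further normalizations. Tgfbr1, Tgfbr2 and Acvr2a lay between -0.12 and 0.09, and Bmpr1b was at -0.14 (95% interval -0.41 to 0.12). Acvrl1, a type I receptor of endothelium, was at 0.06 beside the endothelial markers, whose median was also 0.06.

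Of the 8 Smad genes 3 lay lower with a p under 0.05 before adjustment and 0 lay higher, and the same 3 did not overlap between genotypes. Among all genes 9.38% lay lower at such a p, and 6.47% lay lower without overlap. Whether the Smads as a group differed from all genes was not tested. Smad7, the inhibitory Smad, had signals of 9.55, 9.66, 9.49 and 9.54 in wild type and 9.39, 9.45, 9.35 and 9.33 in knockout. Every knockout array lay under every wild type array, the nearest being knockout replicate 2 and wild type replicate 3. It lay lower by 0.18 (SE 0.06, limma adjusted p = 0.200, unadjusted 0.0179), or 1.13-fold.

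Smad3, the receptor Smad of the TGF-beta branch, had signals of 11.40, 11.40, 11.40 and 11.53 in wild type and 11.21, 11.18, 11.36 and 11.27 in knockout. Smad4, the partner of all receptor Smads, had 11.34, 11.49, 11.42 and 11.39 in wild type and 11.19, 11.30, 11.25 and 11.28 in knockout. In both genes the groups were apart by less than the range within the knockout group. The differences were -0.18 (95% interval -0.33 to -0.03) for Smad3 and -0.16 (95% interval -0.30 to -0.02) for Smad4, with limma adjusted p-values of 0.221 and 0.241.

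Smad5 was at -0.16 (95% interval -0.33 to 0.01, limma adjusted p = 0.322), and knockout arrays overlapped with wild type replicate 1 at 11.13. Smad2, the other receptor Smad of the TGF-beta branch, was at -0.04 (95% interval -0.18 to 0.11). Smad1 and Smad9 of the BMP branch were at 0.01 and 0.11, and Smad6, which inhibits that branch, at 0.04. Smad1 turned to -0.01 with array weights and to -0.02 once Y-linked signal entered the fit. The median of the 8 Smads was -0.10, against 0.00 for all genes. Averaged over the 8 genes, the Smad signal lay between -0.02 and 0.11 in the wild type arrays and between -0.07 and 0.02 in the knockout arrays, relative to each gene's mean, so the groups overlapped.

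These small differences moved with the scaling of the arrays. Median centring, which shifted the median difference of all genes by 0.03, left 5 members with an unadjusted p under 0.05 (Tgfbr3, Smad7, Chrdl1, Id1 and Msx1), and a further quantile normalization left 4 (Tgfbr3, Smad3, Smad7 and Chrdl1). Of all genes 16.6% and 15.1% had such a p after these rescalings, against 16.7% before them. Of the members at an unadjusted p under 0.05 on the deposited scale, 6 of 9 were lower, and after both rescalings 2 were lower. Among all genes at such a p on the deposited scale, 1815 of 3227 were lower. At the stricter adjusted threshold, which no member passed, the lower share of the genes that passed was 74.9%. It was 62.6% and 66.3% after rescaling. The count of 9 became 4 when knockout replicate 1 or knockout replicate 3 was left out. It became 5 without knockout replicate 4, and 5 without wild type replicate 2, where Tgfb2 was among them. The share of all genes in these fits is not given here, so the counts describe the members alone.

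**Figure D3:**
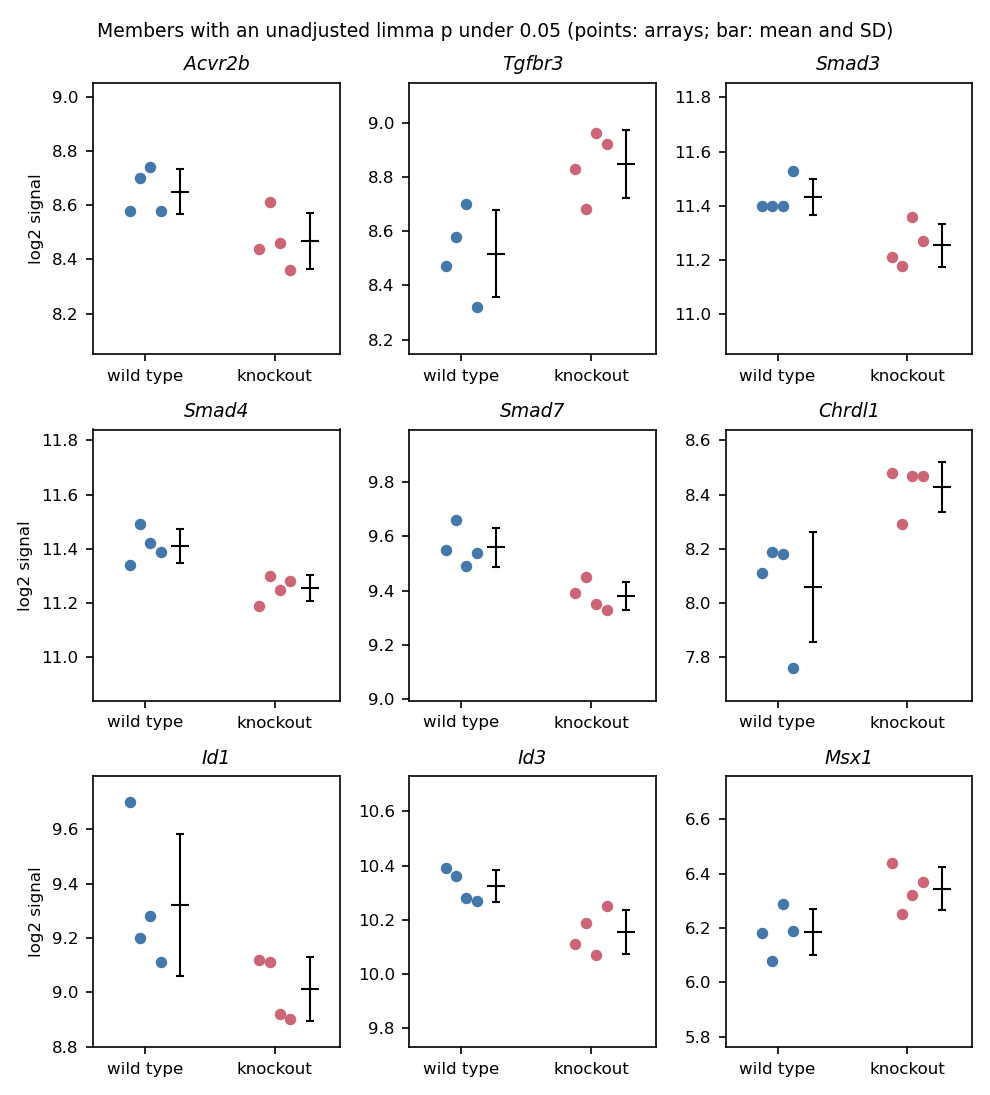
Log2 signal (y axis) of the 9 members with an unadjusted limma p under 0.05 in the 4 wild type and 4 knockout arrays (x axis); each point is 1 array, and the bar gives mean and SD. The groups are apart in Smad3, Smad4, Smad7, Chrdl1 and Id3 and overlap in the other 4, and no gene passes at an adjusted p under 0.05.

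Of the 6 extracellular antagonists 1 lay higher with a p under 0.05 before adjustment, and 0 lay lower, against 7.29% higher and 9.38% lower among all genes. Chrdl1, which binds BMPs outside the cell, had signals of 8.11, 8.19, 8.18 and 7.76 in wild type and 8.48, 8.29, 8.47 and 8.47 in knockout. Every knockout array lay above every wild type array, while wild type replicate 4 and knockout replicate 2 lay low within their groups. The means were 8.06 ± 0.20 and 8.43 ± 0.09 (SD, n = 4 each), a difference of 0.37 (SE 0.10) or 1.29-fold, with a limma p of 0.00391 before adjustment and 0.105 after. In the 19 alternatives its unadjusted p stayed under 0.05 and its adjusted p ran from 0.0555, after a further quantile normalization, to 0.241. Without wild type replicate 4 the difference was 0.27.

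Grem1 had signals of 8.05, 7.82, 7.25 and 7.05 in wild type and 7.93, 8.05, 7.43 and 7.41 in knockout. The knockout arrays lay inside the wild type range, or at its upper end. The difference was 0.16 (95% interval -0.34 to 0.66, limma adjusted p = 0.747), and it ran from -0.0006 without wild type replicate 4 to 0.33 without wild type replicate 1. The interval reaches past a 1.5-fold rise, so a rise of that size lies within it. Nog, Chrd and Bmper, which also bind BMPs, were at 0.07, 0.06 and 0.08. Fst, which binds activins, was at -0.09 (limma adjusted p = 0.719). Bambi, a membrane decoy without kinase activity, was at 0.19 (95% interval -0.07 to 0.46, limma adjusted p = 0.432), with its lowest signal in wild type replicate 4 (9.28) and its highest in knockout replicate 2 (10.00).

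**Figure D4:**
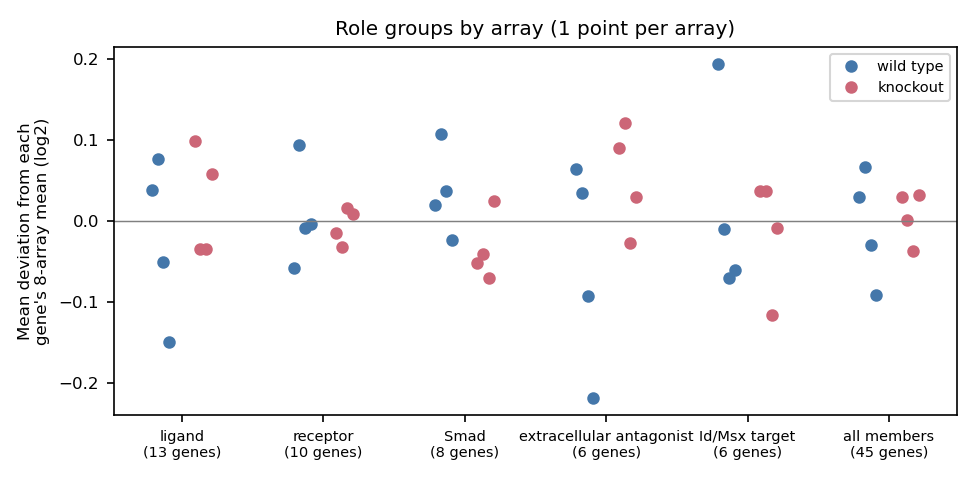
Mean deviation of each role group from its genes' means over 8 arrays, in log2 signal (y axis), for 5 role groups and all 45 members (x axis); each point is 1 array, in the colour of its genotype. Each group overlaps between genotypes, and wild type replicate 4 is lowest for ligands at -0.15 and for extracellular antagonists at -0.22.

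The 6 Id and Msx genes read out BMP signalling in many tissues, and 2 lay lower and 1 higher with a p under 0.05 before adjustment. Among all genes 9.38% lay lower and 7.29% higher at such a p. To show what the Id genes' start regions hold, the RefSeq windows (build GRCm38.p6, 250 bases before to 50 after the start) of Id2, Id3 and Id4 are printed (none for Id1), with capitals marking GGCGCC, letters bound by BMP-branch Smads, and CAGAC or its reverse complement GTCTG, letters bound by Smad3 and Smad4. Id2 lies on the minus strand at chr12:25096043-25096342, Id3 on the plus strand at chr4:136143572-136143871 and Id4 on the plus strand at chr13:48260866-48261165.
Id2: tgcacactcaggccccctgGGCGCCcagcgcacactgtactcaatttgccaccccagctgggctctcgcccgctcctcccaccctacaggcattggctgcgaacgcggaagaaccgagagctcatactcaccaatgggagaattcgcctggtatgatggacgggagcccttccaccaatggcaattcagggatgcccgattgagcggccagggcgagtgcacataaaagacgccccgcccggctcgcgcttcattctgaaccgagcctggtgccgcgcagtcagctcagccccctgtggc
Id3: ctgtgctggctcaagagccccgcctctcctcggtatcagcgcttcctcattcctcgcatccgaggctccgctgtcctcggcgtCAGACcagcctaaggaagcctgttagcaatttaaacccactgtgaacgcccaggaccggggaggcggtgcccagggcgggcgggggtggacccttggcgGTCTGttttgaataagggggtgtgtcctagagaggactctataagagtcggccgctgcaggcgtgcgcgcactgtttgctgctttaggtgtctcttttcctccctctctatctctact
Id4: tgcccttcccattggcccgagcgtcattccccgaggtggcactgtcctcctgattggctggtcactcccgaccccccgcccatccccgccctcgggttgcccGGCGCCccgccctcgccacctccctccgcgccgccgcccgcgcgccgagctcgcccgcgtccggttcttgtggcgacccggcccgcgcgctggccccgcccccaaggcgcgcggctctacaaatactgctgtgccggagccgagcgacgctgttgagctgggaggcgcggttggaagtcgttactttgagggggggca
The Id3 window holds CAGAC once on each strand and no GGCGCC, whereas those of Id2 and Id4 each hold GGCGCC at 1 place and no CAGAC.

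Id1 had signals of 9.70, 9.20, 9.28 and 9.11 in wild type and 9.12, 9.11, 8.92 and 8.90 in knockout. Wild type replicate 1 stood highest, and 2 knockout arrays lay at the level of the lowest wild type array. The means were 9.32 ± 0.26 and 9.01 ± 0.12 (SD, n = 4 each), a difference of -0.31 (SE 0.12) or 1.24-fold, with a limma p of 0.0293 before adjustment and 0.241 after. Without wild type replicate 1 the difference was -0.18, over 1.5 times smaller, and its unadjusted p was no longer under 0.05.

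Id3 had signals of 10.39, 10.36, 10.28 and 10.27 in wild type and 10.11, 10.19, 10.07 and 10.25 in knockout. The groups did not overlap, though knockout replicate 4 came within 0.02 of wild type replicate 4. It lay lower by 0.17 (95% interval -0.32 to -0.02, limma adjusted p = 0.236), or 1.13-fold.

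Id2 had signals of 12.52, 12.46, 12.09 and 12.19 in wild type and 12.54, 12.14, 12.42 and 12.47 in knockout. The groups overlapped over nearly their whole range, with a difference of 0.07 (95% interval -0.18 to 0.33, limma adjusted p = 0.781). Id2 shares chromosome 12 with Sox11, the inactivated gene, with 29 RefSeq genes between them, of which 3 are protein-coding. Id4 was at 0.09 (95% interval -0.18 to 0.35). Whether the Id genes differed from each other in their change was not tested.

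Msx1, a homeobox gene induced by BMPs, had signals of 6.18, 6.08, 6.29 and 6.19 in wild type and 6.44, 6.25, 6.32 and 6.37 in knockout. Knockout replicate 2 lay under wild type replicate 3. Msx1 lay higher by 0.16 (95% interval 0.00 to 0.32, limma adjusted p = 0.286). Its mean signal of 6.26 was low, just above the 25th percentile of all genes (6.22). Its unadjusted p was under 0.05 in 8 of 18 alternatives. Its relative Msx2 was at 0.00 (95% interval -0.28 to 0.28) and turned to -0.03 and -0.06 under further quantile normalization and array weights. Gata2 was at -0.02 (95% interval -0.23 to 0.19) and turned to 0.02, 0.02 and 0.01 under median centring, further quantile normalization and array weights.

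Promoter windows were held for 30 of the 45 genes, as 36 windows. GGCGCC, which reads the same on both strands, was in 30.6% of these and in 11.9% of all 32851 windows. CAGAC was in 38.9% against 49.6%, and the SOX-binding letters ACAAAG and ACAATG in 27.8% against 18.7% and in 2.78% against 12.6%, counted on both strands. The windows of the members were richer in G and C (median 67.3%) than all windows (52.7%). These matches describe the letters alone and were not tested.

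The other genes of the pathway were taken from a list of 96, of which 87 were measured. Of these 0 passed at a limma adjusted p under 0.05 in either direction, and 7 lay lower and 6 higher with a p under 0.05 before adjustment, which is 14.9% against 16.7% of all genes. Their median difference was 0.02. The lowest adjusted p was 0.0845, for Gata3, a target of several pathways and a marker of the nephric duct, which was higher by 0.25. It passed when only genes above the median signal were tested (limma adjusted p = 0.0421) and under trended, robust moderation (0.0444).

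Among 19 intracellular modulators 5 lay lower and 0 higher with a p under 0.05 before adjustment, which is 26.3% lower, against 9.38% of all genes. Of the 19, 14 lay below 0, and their median was -0.08. Both rescalings left 2 of the 5, Tgif1 and Tab1, with such a p. Leaving out wild type replicate 3 or knockout replicate 3 left 3 of the 5 (Tgif1, Tab1 and Ppm1a). Over the 19 alternatives Tgif1 and Tab1 kept such a p in all 19, Ppm1a in 14, and Tgif2 and Pmepa1 in 12 each. The 5 were the Smad corepressors Tgif1 (-0.29) and Tgif2 (-0.21), the Smad-trapping protein gene Pmepa1 (-0.17), the kinase adaptor Tab1 (-0.22) and the Smad phosphatase Ppm1a (-0.20), with limma adjusted p-values of 0.155 to 0.252. Tgif1, with a mean of 11.01 ± 0.13 in wild type and 10.72 ± 0.15 in knockout (SD, n = 4 each), did not overlap between genotypes, but wild type replicate 4 and knockout replicate 3 were both at 10.86 after rounding.

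Rgmb, a BMP co-receptor and the 1 of 9 other receptors with an unadjusted p under 0.05 (11.1%, against 16.7% of all genes), was lower by 0.25 (limma adjusted p = 0.116). Ltbp4, which stores latent TGF-beta in the matrix, was lower by 0.44 (95% interval -0.74 to -0.15, limma adjusted p = 0.130), the largest difference on the list, with signals of 8.14, 8.69, 8.20 and 8.15 in wild type and 8.06, 7.91, 7.77 and 7.66 in knockout. Every knockout array of Ltbp4 lay under every wild type array. In the same list of 11 processing genes the protease gene Tll2 was higher by 0.32 (limma adjusted p = 0.209). Fstl1, a secreted BMP-binding protein, was higher by 0.20, the ligands Nodal and Gdf3 by 0.21 and 0.20, and the target Dlx5 by 0.28, at limma adjusted p-values of 0.231 to 0.291. Signals of Tll2, Nodal, Gdf3 and Dlx5 were low, with means of 6.16, 6.25, 5.75 and 6.27 over the arrays. The 25th percentile of all genes was 6.22.

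**Figure D5:**
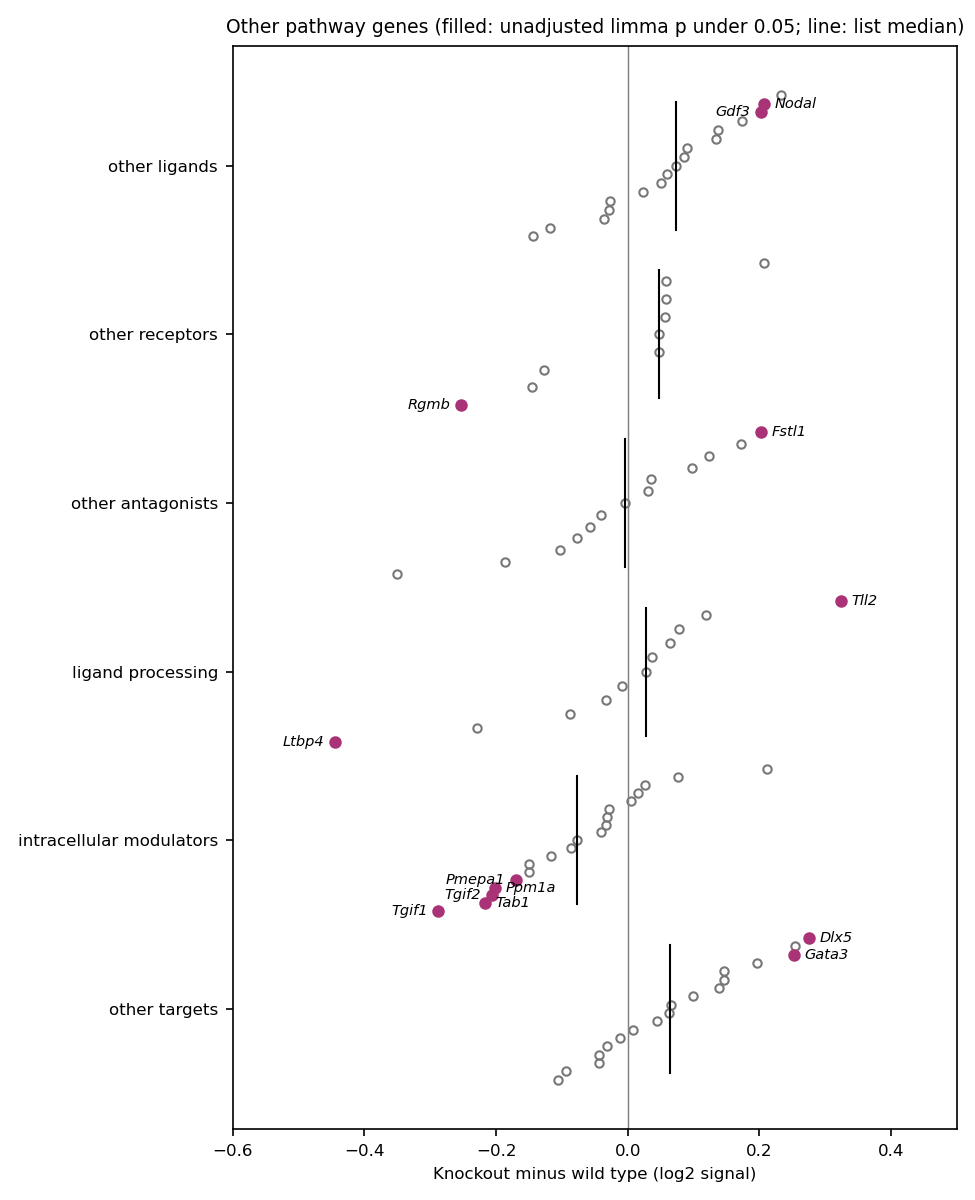
Knockout minus wild type difference in log2 signal (x axis) of 87 other pathway genes in 6 lists (y axis); each point is 1 gene, filled where the unadjusted limma p was under 0.05, and lines mark list medians. Filled points number 13, of which 5 lie among the intracellular modulators on the lower side, and Ltbp4 lies lowest at -0.44.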

How the data were processed

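RNA of the caudal urogenital ridge was depleted of ribosomal RNA, amplified, biotin-labelled and measured on Affymetrix arrays, 1 per replicate, per the labels' protocols. The authors deposited log2 values per probe set, and the submitters' processing notes name RMA, which corrects background, quantile-normalizes arrays and combines probes, and Partek, without versions. RMA gives arrays nearly 1 distribution, so a shift of all transcripts cannot be seen.

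Of 27478 probe sets 21103 carried 1 gene symbol in the platform annotation, and where a gene had several, that of highest mean signal was used (19356 genes). The genotypes were fitted with limma (version 3.58.1, R 4.3.3; lmFit, eBayes, genotype alone, two-sided), with Benjamini-Hochberg adjustment over all genes, a threshold of 0.05 and no filter on low signal. The code was tested on simulated data. Members and lists were chosen with earlier results of these data known. Values per array are given for members with an unadjusted p under 0.05 or groups apart, and for Bmp4, Bmp7, Grem1, Bmpr1a, Smad4, Id1, Id2 and Msx1; other pathway genes with such a p are named. Inhba, the arrays of Ltbp4 and single arrays of other genes were added after their values were seen. Alternatives were other scalings, signal filters, probe set rules, moderation, array weights, a replicate block, a Y-linked covariate and leaving out each array. The mean signal of Y-linked genes was 10.06 in wild type replicate 1 and 9.88 and 9.84 in knockout replicates 3 and 4. In the other arrays it was 5.31 to 5.58, so wild type replicate 1 was the only wild type array with a high Y-linked signal. Marker lists of macrophages, gut endoderm, limb bud with surface ectoderm, and liver had median differences of 0.03, 0.07, 0.06 and 0.13. The limb bud list varied between arrays, from 6.66 to 7.14 in wild type and from 6.66 to 7.28 in knockout. Its gene Tbx4 ran from 6.87 to 8.43 in wild type and from 6.99 to 9.16 in knockout. The gut endoderm list averaged 8.39 in wild type replicate 1 and 8.44 in knockout replicate 2, and 7.92 to 8.10 in the other arrays. Bmp4, Grem1 and Msx2 were each highest of their genotype in both of these arrays, whereas Bmp7, Inhba and Id2 were not. The part that tissue content of single arrays has in the members' values was not tested.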

Additional observations from a re-analysis of the deposited data

Results flagged for a closer look

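Smad3 in wild type replicate 4, at a log2 signal of 11.53, stood above the other wild type arrays, which all lay at 11.40. Nog in wild type replicate 3, at 5.91, stood below the others at 6.02 to 6.04, and Chrdl1 in knockout replicate 2, at 8.29, stood below the others at 8.47 to 8.48. Each array's gap to its nearest neighbour was large against the range of its group. Of 90 groups of 4 arrays examined 3 stood out so, where chance flags about 1 in 20 groups.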

How the results depend on the processing

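No member passed at a limma adjusted p under 0.05 in any of the 19 alternatives, where the lowest was 0.0555. Of 841 member differences under them 43 changed sign, over 15 members whose differences were at most 0.163 on the deposited scale. Median centring gave 5 members with an unadjusted p under 0.05 (2 lower) and 137 lower genes in all, with Bmp5 at 0.009, Acvr1 at 0.0204 and Gata2 at 0.0151. Further quantile normalization gave 4 such members (2 lower), with Bmp5 at 0.0185, Acvr1 at 0.0432, Msx2 at -0.0307 and Gata2 at 0.0174. Of all genes 16.6% and 15.1% had such a p under these scalings, in that order. Array weights gave Smad1 at -0.0069, Msx2 at -0.0552 and Gata2 at 0.0114. The fit with Y-linked signal gave 151 genes past the threshold (117 lower, 34 higher), with Bmp5 at 0.0246, Bmp6 at -0.0265, Inhba at -0.0291 and Smad1 at -0.0192. No moderation gave 55 genes (48 lower, 7 higher) against 279 (209 lower, 70 higher). Gata3 was the 1 other pathway gene that passed among genes above the median signal, and the 1 that passed with trended, robust moderation. With the replicate number as a block 166 genes passed (117 lower), and no member did; same-numbered arrays deviated from their group means with correlations of -0.17, 0.09, -0.04 and 0.06 across genes, so the numbers were not taken as pairs. Leaving out 1 array gave 107 to 243 genes (88 to 192 lower, 17 to 55 higher) and 4 to 8 members with an unadjusted p under 0.05 (2 to 5 lower). The share of all genes at such a p in those fits is not given here. In those fits the difference ran for Bmp7 from -0.0004 to 0.073, Bmpr2 from -0.022 to 0.0335, Bmp5 from -0.1343 to 0.0822, Bmp6 from -0.0917 to 0.184, Gdf11 from -0.1534 to 0.0031, Acvr1 from -0.0453 to 0.0184 and Msx2 from -0.1256 to 0.0736. It ran for Inhba from -0.1063 to 0.4999, Id2 from -0.0019 to 0.1566, Gata2 from -0.0795 to 0.0445, Bmp4 from -0.0318 to 0.1683, Smad1 from -0.0436 to 0.034, Smad6 from -0.0287 to 0.0943, Grem1 from -0.0006 to 0.3336 and Bmp2 from -0.19 to 0.004. The cause of these shifts was not tested. With 4 arrays a genotype, a count of 0 past the adjusted threshold does not show that the members did not differ.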

Other observations

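Hamp, the gene of the iron hormone hepcidin and a target of BMP signalling in liver cells, was chosen after its values were seen. It had log2 signals of 6.03, 5.86, 5.31 and 5.85 in wild type and 6.87, 6.32, 6.89 and 6.56 in knockout. It was higher by 0.90 (limma adjusted p = 0.0298), at a low mean signal of 6.21 where the 25th percentile of all genes was 6.22. Of 5 liver markers 4 lay higher, with a median difference of 0.13. Of them 0 had an unadjusted limma p under 0.05, against 16.7% of all genes. The part that liver cells have in the Hamp signal was not tested. The liver markers averaged 6.20 to 6.46 over the wild type and 6.25 to 6.64 over the knockout arrays. Whether the probe set also reads the near-identical copy Hamp2 was not tested. Amhr2, the receptor of anti-Müllerian hormone, also chosen after its values were seen, varied widely within both genotypes, from 6.33 to 7.86 in wild type and from 5.96 to 8.09 in knockout.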
